A study of Mus musculus with 6 samples.

Results

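The genes described are 42 imprinted genes of the mouse, read in GLUTag cells. They were chosen by name, most of them as members of known imprinted clusters. Earlier results of these data were known at that time. Their Ensembl identifiers, matched to mouse symbols, were all found among the 54281 genes of the count table. GLUTag is a hormone-secreting enteroendocrine line, derived from a colonic tumour of a mouse that carried a viral oncogene under the proglucagon promoter. The data are 6 libraries of one condition, with no drug or genetic change named, from wells with a 0.4% Matrigel coat in which the cells had 48 h in DMEM with 1 g/L glucose and 10% FBS. Plate 1 gave 3 replicates of passage 23 and plate 2 gave 3 replicates of passage 27. A plate effect and a passage effect cannot be told apart, and no separate cultures within a plate are named. All p-values therefore measure the spread between replicates.

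Polyadenylated RNA was sequenced from the 3′ end, so long and short transcripts each give 1 tag, and levels are compared between genes as CPM, counts scaled to a common library total, without a length term. Library totals lay between 21399987 and 36488198 counts. A gene with no count may still have had up to 3 counts, which is 0.0822 to 0.14 CPM in these libraries and covers counting error only. The plate 2 column headers are numbered from 1 to 3 within the plate and do not show which sample replicate number each holds. These columns are called here the lowest-, middle- and highest-total library. Where 6 values are listed for a gene, they follow the order plate 1 replicates 1, 2 and 3, then the lowest-, middle- and highest-total libraries of plate 2. The enteroendocrine markers were present, with 8 of 8 genes at a mean of at least 82.9 CPM and a summed level of 5633 to 7500 CPM per library. Among fibroblast markers 1 of 6 genes reached 1 CPM in every library (Col1a2, 5.87 CPM) and the 6 summed to 4.71 to 7.03 CPM. The 5 macrophage markers summed to 0.421 to 1.28 CPM with none at 1 CPM in every library, and the 5 enterocyte markers to 1.87 to 4.60 CPM with 1 at that level. Of the endothelial markers, Pecam1 had 43.0 ± 33.2 CPM (SD, n = 6), whereas Cdh5 and Kdr had at most 3 and 6 counts in any library, so the summed level of 3.60 to 99.9 CPM was nearly all Pecam1.

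An imprinted gene is read mainly from the copy inherited from one parent, because DNA methylation laid down in the egg or the sperm at a control region of the cluster marks the parental copies differently. Within a cluster, genes read from the paternal copy often lie beside genes read from the maternal copy, and in several clusters a long noncoding RNA read from one copy silences its neighbours on the same chromosome. Many imprinted genes act on growth of the fetus and placenta and on metabolism, and some are imprinted in certain tissues only. The counts do not separate the parental copies, so the words paternal and maternal below give the copy from which a gene is known to be read and are not a measurement in these cells.

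The protein ZFP57 protects methylation marks at imprinted control regions by binding the methylated hexamer TGCCGC. In the 250 bases before each RefSeq gene start (GRCm38.p6, 34 of 42 members matched), these letters were found on either strand for 7 of 34 members (20.6%), against 9.84% of 27025 genes. The members were Mcts2, Mest, Copg2, Nap1l5, Zim1, Plagl1 and Meg3. The hexamer was found in 4 of 19 matched members at 1 CPM or more in every library (21.1%) and in 3 of 15 of the others. One window is shown for each of the 4 paternally read members that hold it, and a second, nearly identical window of Mest is left out. Mcts2 is an intronless retrogene at 53.1 CPM, Mest a hydrolase gene at 40.8 CPM, Plagl1 a zinc finger gene at 40.3 CPM, and Nap1l5 a retrogene listed at 0. Each sequence is written 5′ to 3′ on the strand of the gene with the hexamer or its reverse complement (GCGGCA) in capitals, at chr2:152686898-152687147 (plus strand), chr6:30737800-30738049 (plus strand), chr10:13090582-13090831 (plus strand) and chr6:58907127-58907376 (minus strand) in that order.
Mcts2: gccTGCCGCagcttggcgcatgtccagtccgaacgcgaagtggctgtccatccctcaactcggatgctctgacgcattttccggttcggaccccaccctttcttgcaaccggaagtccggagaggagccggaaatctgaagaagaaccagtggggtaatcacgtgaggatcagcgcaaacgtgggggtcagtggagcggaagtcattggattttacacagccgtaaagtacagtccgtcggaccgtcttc
Mest: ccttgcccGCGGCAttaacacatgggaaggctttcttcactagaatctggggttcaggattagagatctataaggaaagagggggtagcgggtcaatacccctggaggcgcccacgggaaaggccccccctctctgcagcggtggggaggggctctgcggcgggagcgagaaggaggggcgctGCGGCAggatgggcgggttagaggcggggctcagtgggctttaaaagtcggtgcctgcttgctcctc
Plagl1: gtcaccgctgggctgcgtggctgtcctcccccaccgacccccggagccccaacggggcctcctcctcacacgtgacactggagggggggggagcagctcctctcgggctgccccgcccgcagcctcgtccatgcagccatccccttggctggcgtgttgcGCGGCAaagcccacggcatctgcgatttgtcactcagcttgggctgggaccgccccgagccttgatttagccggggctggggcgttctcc
Nap1l5: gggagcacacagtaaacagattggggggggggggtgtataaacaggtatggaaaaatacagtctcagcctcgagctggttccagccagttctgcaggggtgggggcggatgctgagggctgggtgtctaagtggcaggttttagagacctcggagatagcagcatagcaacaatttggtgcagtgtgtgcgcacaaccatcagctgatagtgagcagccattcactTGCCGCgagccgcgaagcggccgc
The Mest window holds the letters at 2 places and the other 3 windows at 1 place each. A second motif, GCCATNTT, a core of the sites of YY1, was found on either strand for 2 of 34 members (5.88%) and for 4.49% of all genes. The highest CpG observed to expected ratio among a gene's windows had a median of 0.618 over the members and 0.403 over all genes. A match of letters describes the window and shows no binding.

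Of the 42 members, 24 (57.1%) reached 1 CPM in every library, against 22.8% of all genes in the table and 51.8% of the protein-coding genes. A mean of at least 10 CPM was reached by 21 of 42 members, against 38.3% of the protein-coding genes. Of 46 further imprinted genes and host genes outside this list, 34.8% reached 1 CPM in every library and 19.6% a mean of 10 CPM. Both shares lie under those of the protein-coding genes, so the members' shares do not stand for imprinted genes in general. At the other end, 10 members had at most 3 counts in every library, and 4 of them (Slc22a18, Ascl2, Nap1l5 and Nnat) had no count in any library. A level of 1 CPM in every library was reached by 15 of 24 paternally read and 9 of 18 maternally read members. Of the 8 noncoding members, 3 did so (Kcnq1ot1, Airn and Peg13). The members together took 2391 to 3485 CPM per library, of which Gnas alone held 1173 to 1763 CPM.

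**Figure D1:**
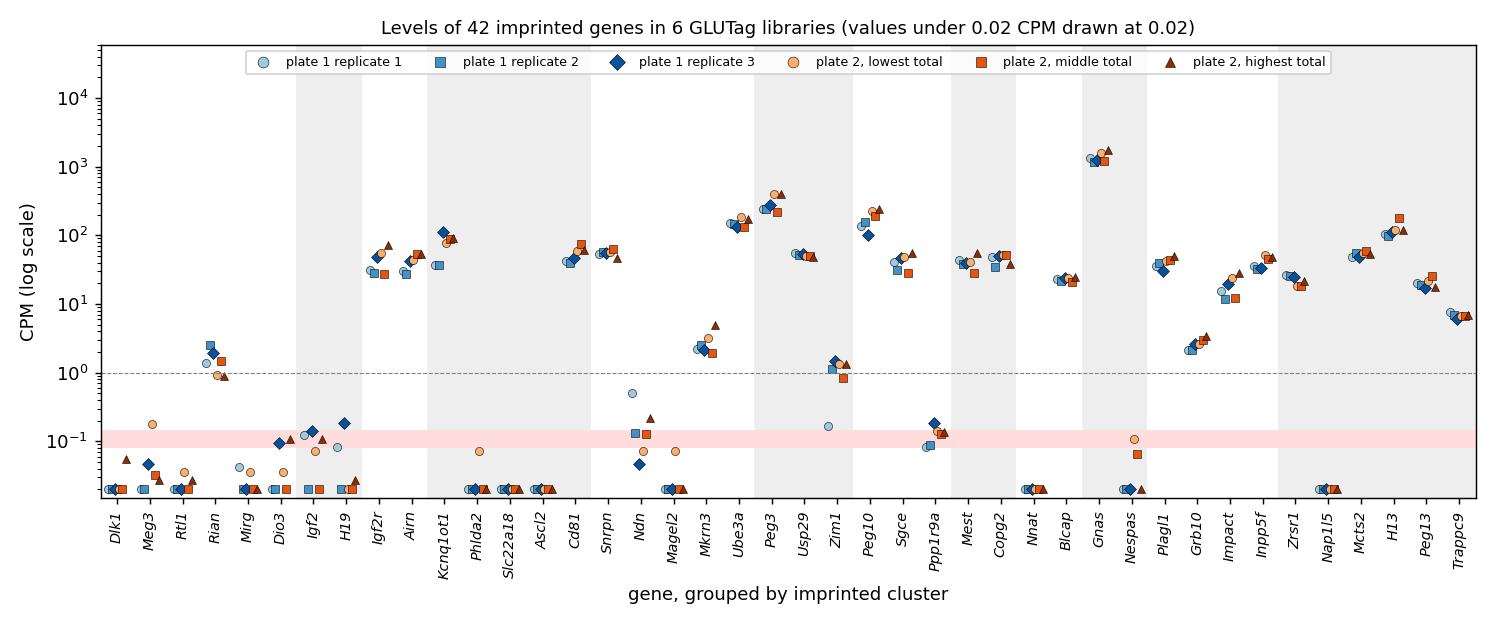
Level of each of the 42 members in CPM on a log scale, grouped by cluster in alternating shaded bands, with 1 point per library. Values under 0.02 CPM are drawn at 0.02, the red band spans the limits that a count of 0 allows (0.0822 to 0.14 CPM), the dashed line is at 1 CPM, and Gnas stands highest at 1173 to 1763 CPM.

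The Gnas locus on chromosome 2 was the most abundant. Gnas (ENSMUSG00000027523, chr2:174284320-174346744 of GRCm38) encodes the stimulatory G protein alpha subunit, which couples hormone receptors to the making of cyclic AMP, the second messenger behind hormone release from enteroendocrine cells. Its level was 1318, 1173, 1271, 1594, 1222 and 1763 CPM, a mean of 1390 ± 235 CPM (SD, n = 6), and it ranked at place 71 of all genes. The lowest value was in plate 1 and the highest in plate 2, but the plates overlapped. The gene count pools transcripts from all starts of the locus, including those that are imprinted and the main one, which most tissues read from both copies. Nespas, the paternal antisense RNA of the locus, had 0 to 3 counts, so Gnas was at least 8850-fold higher in each library against a limit of 3 counts.

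The Peg3 cluster at the start of chromosome 7 came next. Peg3 (chr7:6703892-6730431, minus strand), a paternal zinc finger protein gene, had 246, 246, 276, 396, 218 and 396 CPM (296 ± 79.3 CPM, SD, n = 6). Usp29 (chr7:6730578-6967219, plus strand), a paternal gene for a deubiquitinating enzyme, had 54.4, 51.3, 53.0, 50.2, 49.5 and 48.9 CPM (51.2 ± 2.14 CPM, SD, n = 6). In CPM its values lay close together, whereas those of Peg3 fell into 2 high libraries and 4 lower ones. These genes are read in opposite directions from RefSeq starts 164 bases apart. The sequence between the starts is shown because both genes begin at it. It is chr7:6730420-6730582 of GRCm38.p6 on the plus strand, 163 bases with a GC content of 62%, and the letters CCAAT, a box known from many promoters and chosen here after the sequence was seen, are in capitals at 2 places.
Peg3-Usp29: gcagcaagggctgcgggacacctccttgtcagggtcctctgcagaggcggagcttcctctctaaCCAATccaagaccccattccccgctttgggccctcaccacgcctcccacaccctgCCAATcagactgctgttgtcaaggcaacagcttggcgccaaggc
CCAAT or its reverse complement was found in 33.8% of all 250-base windows and in 31.2% of the members' windows. Peg3 exceeded Usp29 in 6 of 6 libraries, by 4.42- to 8.11-fold. The difference of log2(CPM + 1) was 2.47 ± 0.40 (SD, n = 6; exact two-sided sign-flip permutation p = 0.03125, the smallest that 6 libraries allow, and 0.0491 after Benjamini-Hochberg adjustment over the 11 pairs tested). It was 2.25 on plate 1 and 2.69 on plate 2. Every pair with this smallest p has the same adjusted p, which depends on how many such pairs were tested. Zim1, a maternal zinc finger gene beside Peg3, had 0.167, 1.15, 1.495, 1.32, 0.841 and 1.34 CPM (1.05 ± 0.488 CPM, SD, n = 6), from 4 to 49 counts. Peg3 was higher than Zim1 in 6 of 6 libraries with a difference of 7.18 ± 0.39 on the log2(CPM + 1) scale (SD, n = 6; exact permutation p = 0.03125, adjusted p = 0.0491), which a pseudocount of 0.1 CPM raised to 8.17.

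At the Peg10 locus on chromosome 6, Peg10 and Sgce are neighbouring paternal genes that are read in opposite directions. Peg10 (chr6:4747306-4760517), a gene taken over from a retrotransposon and needed in the placenta, had 137, 159, 101, 224, 194 and 244 CPM (176 ± 54.2 CPM, SD, n = 6). The 3 plate 2 libraries lay above the 3 of plate 1, as in 42.9% of the 8658 genes averaging 10 CPM or more, or in 15.1% with TMM factors, with which Peg10 kept this order. Sgce, which encodes epsilon-sarcoglycan of the cell membrane, had 41.3, 31.3, 46.3, 47.9, 28.1 and 55.3 CPM (41.7 ± 10.4 CPM, SD, n = 6), and its plates overlapped. Peg10 was 2.18- to 6.92-fold higher than Sgce, in 6 of 6 libraries (log2 difference 2.03 ± 0.56, SD, n = 6; exact permutation p = 0.03125, adjusted p = 0.0491). Ppp1r9a, the maternal gene of the neuronal protein neurabin on the far side, had only 2, 2, 4, 4, 4 and 5 counts. Sgce was above it in 6 of 6 libraries (log2 difference 5.21 ± 0.35, SD, n = 6; exact permutation p = 0.03125, adjusted p = 0.0491), a size that ran from 3.16 to 7.50 with pseudocounts of 5 and 0.1 CPM.

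The Snrpn cluster on chromosome 7 is the mouse counterpart of the region of the Prader-Willi and Angelman syndromes. Ube3a, the maternal ubiquitin ligase gene that is imprinted in neurons and read from both copies in most other cells, had 151, 148, 133, 184, 132 and 175 CPM (154 ± 21.4 CPM, SD, n = 6). Snrpn, the paternal gene of a splicing protein, had 53.9, 57.8, 56.0, 58.2, 64.0 and 46.1 CPM (56.0 ± 5.90 CPM, SD, n = 6). No library of one gene reached the range of the other. Ube3a was 2.06- to 3.78-fold higher in 6 of 6 libraries (log2 difference of Snrpn minus Ube3a -1.44 ± 0.31, SD, n = 6; exact permutation p = 0.03125, adjusted p = 0.0491). The last 3613 bases of Ube3a lie opposite Snhg14, the long paternal RNA antisense to it, which was counted at 84.1 CPM. The library kit keeps strand, but the strand setting of the read assignment is not given in the sources used here. Reads of opposite genes may therefore not have been told apart here or in the overlaps below. Gnas and Nespas overlap over 11117 bases too, but the annotated 3′ end of neither gene lies in that stretch. The other paternal genes of the cluster were low. Mkrn3, a ubiquitin ligase gene linked to the timing of puberty, had 1.91 to 5.01 CPM, Ndn, which encodes the neuronal growth suppressor necdin, had 1 to 12 counts, and Magel2, of the same protein family as necdin, had 0 to 2 counts.

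Igf2r and Airn on chromosome 17 are the textbook pair of a gene and its antisense silencer. Igf2r, the maternal receptor gene that clears the growth factor IGF2 and sorts lysosomal enzymes, had 31.3, 28.4, 48.2, 55.9, 27.3 and 73.4 CPM (44.1 ± 18.5 CPM, SD, n = 6). Airn, the paternal RNA that starts inside Igf2r and runs against it, had 29.8, 27.5, 41.7, 43.4, 53.4 and 54.0 CPM (41.6 ± 11.3 CPM, SD, n = 6). Igf2r was slightly above Airn in 5 of 6 libraries and well below it in the middle-total library of plate 2. The log2 difference was 0.03 ± 0.50 (SD, n = 6; exact permutation p = 0.906, the same after adjustment), or 0.22 without that library. The genes overlap on opposite strands over 28354 bases, a stretch that holds the annotated 3′ end of neither. Igf2, the ligand, and H19, the noncoding RNA that shares its enhancers, had 0 to 4 counts each, and their difference of 0.03 ± 0.07 (SD, n = 6; exact permutation p = 0.375, adjusted p = 0.458) lies at the limit of this depth.

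The Kcnq1ot1 cluster was present in 2 of its 5 members. Kcnq1ot1 (chr7:143203458-143296549, minus strand), the long paternal antisense RNA that silences this cluster, had 36.5, 37.3, 112, 76.7, 89.4 and 92.1 CPM (74.0 ± 30.8 CPM, SD, n = 6). Plate 1 replicate 3 was 3.03-fold above the average of its 2 plate mates, and only 3 of the 8658 genes averaging 10 CPM or more had a higher such ratio. Only 1.17% of those genes exceeded 1.5-fold in that library. Igf2r was the other member of that level past it (1.62-fold), and Airn and Impact were just under it, each at 1.45-fold. Below that level Zim1, with 32 counts in that library, was 2.27-fold higher, against plate mates with 4 and 26 counts. That ratio rests largely on the low count of replicate 1. The longest annotated Kcnq1ot1 transcript has 93092 bases and holds 10 runs of at least 10 A before its last 200 bases. Such a run can prime a 3′ library inside a transcript. It was found in the longest transcript of 9 of 42 members (21.4%) and in that of 7.84% of 55450 annotated genes. These shares were not matched for transcript length or gene type, and a longer transcript has more room for a run. The part of such runs in the counts was not tested. Cd81, a tetraspanin gene at the edge of the cluster, had 43.0, 40.0, 46.3, 59.0, 74.0 and 62.2 CPM (54.1 ± 13.2 CPM, SD, n = 6), and its plate 2 values again lay above those of plate 1. It was at least 302-fold higher in each library than Ascl2, the maternal transcription factor gene of intestinal stem cells, which had no count. Slc22a18, a transporter gene, also had no count and Phlda2, which restrains growth of the placenta, had 0 to 2.

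The Dlk1-Meg3 cluster on chromosome 12 was nearly silent. Rian, a maternal noncoding RNA that carries small nucleolar RNAs, was the only member above the limit of detection in every library, with 1.38, 2.52, 1.96, 0.926, 1.46 and 0.904 CPM (1.52 ± 0.62 CPM, SD, n = 6). It had 26 to 57 counts per library. Meg3, the first RNA of the same maternal stretch, had 0 to 5 counts, and Mirg, a host of microRNAs at its far end, had 0 or 1. The paternal genes were at the same level, with 0 to 2 counts for Dlk1, which encodes a Notch ligand-like membrane protein, 0 or 1 for the retrotransposon-derived Rtl1, and 0 to 4 for Dio3, whose enzyme inactivates thyroid hormone.

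Several members are retrogenes or RNAs that lie within an intron of a host gene, and in these pairs the nested member is read from the paternal copy. Mcts2 (chr2:152687035-152687946) had 47.7, 55.6, 47.6, 55.5, 58.5 and 53.7 CPM (53.1 ± 4.5 CPM, SD, n = 6). Its host H13 (chr2:152669461-152708670), which encodes signal peptide peptidase, had 104, 97.5, 113, 119, 178 and 119 CPM (122 ± 28.8 CPM, SD, n = 6), and the middle-total library of plate 2 stood far above the rest. H13 was 1.75- to 3.04-fold higher in 6 of 6 libraries (log2 difference of Mcts2 minus H13 -1.16 ± 0.26, SD, n = 6; exact permutation p = 0.03125, adjusted p = 0.0491). Peg13, a noncoding RNA known from brain, had 480, 434, 366, 609, 798 and 650 counts, or 17.1 to 25.8 CPM (20.3 ± 3.16 CPM, SD, n = 6), and its host Trappc9, a gene of vesicle tethering, had 7.63, 7.03, 5.98, 6.66, 6.63 and 6.82 CPM (6.79 ± 0.539 CPM, SD, n = 6). Here the nested RNA was the higher one, by 2.61- to 3.89-fold in 6 of 6 libraries (log2 difference 1.44 ± 0.21, SD, n = 6; exact permutation p = 0.03125, adjusted p = 0.0491). Both nested genes lie on the strand of their host, so that a host read inside an intron cannot be told apart from one of the nested gene by strand.

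Zrsr1, a splicing factor retrogene, had 26.1, 25.5, 24.6, 18.3, 18.6 and 21.4 CPM (22.4 ± 3.47 CPM, SD, n = 6). Its host on the opposite strand, Commd1, a gene of copper and membrane protein traffic, had 79.0, 67.1, 77.8, 80.5, 15.2 and 79.7 CPM. Commd1 was higher in 5 of 6 libraries and lower in the middle-total library of plate 2 (log2 difference of Zrsr1 minus Commd1 -1.37 ± 0.84, SD, n = 6; exact permutation p = 0.0625, adjusted p = 0.0859). Without that library it was -1.69, with Commd1 higher in 5 of 5. Nap1l5 had no count while its host Herc3, a ubiquitin ligase gene, had 7.83, 6.45, 9.72, 12.3, 3.65 and 16.8 CPM, at least 37.7-fold more in each library. The same held for Nnat, the gene of the membrane protein neuronatin, which lies inside Blcap. Blcap, a small membrane protein gene, had 22.8, 21.3, 23.6, 23.7, 21.2 and 24.8 CPM (22.9 ± 1.45 CPM, SD, n = 6), at least 161-fold above it. The parent or sister genes of these retrogenes had higher means than the copies, with 65.0 ± 6.28 CPM for Mcts1, 121 ± 11.9 CPM for Zrsr2 and 700 ± 58.6 CPM for Nap1l1 (SD, n = 6 each). Reads that fit both a copy and its parent are shared out by the estimate, which gives counts that need not be whole. Of the 26 members over 3 counts in every library, 22 (84.6%) had whole counts throughout within 0.01 count, against 78.3% of all genes at that level. No member departed from a whole count by more than 0.141, whereas Commd1 departed by 0.494, and Gm28048, counted at 23.5 CPM, overlaps Commd1 on its strand.

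**Figure D2:**
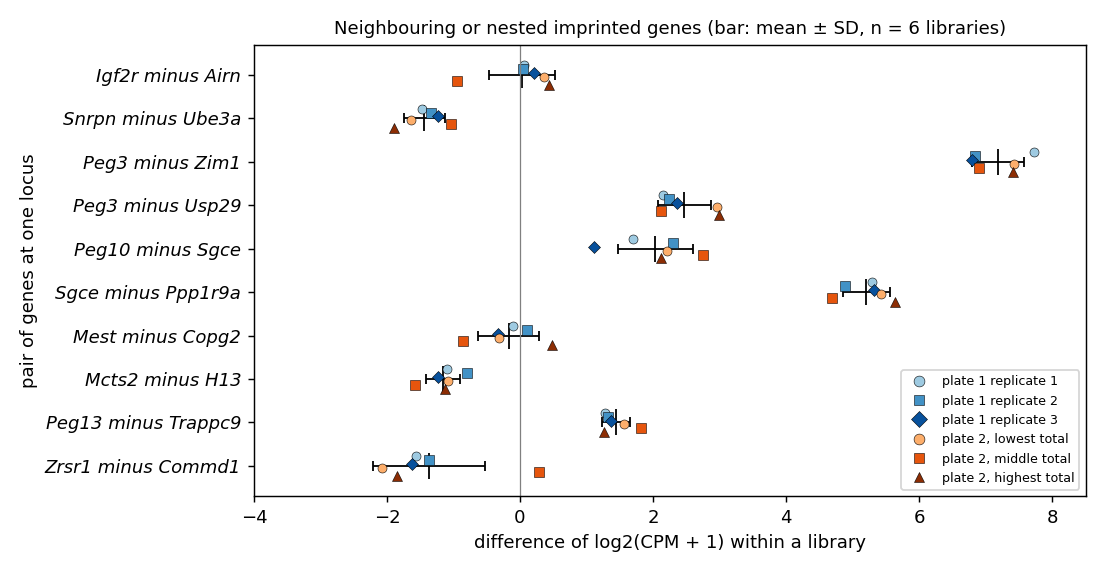
Difference of log2(CPM + 1) between the 2 genes of a locus within each library, with 1 point per library and the mean ± SD (n = 6) as a bar, for 10 of the 11 tested pairs (Igf2 minus H19, near the detection limit, is left out). In 7 pairs all 6 libraries lie on one side of 0, and in Igf2r minus Airn and Zrsr1 minus Commd1 the middle-total library of plate 2 lies apart from the other 5.

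Mest and Copg2 on chromosome 6 converge and overlap by 912 bases at their 3′ ends, the part that these libraries read. Mest, the paternal gene, had 44.3, 37.8, 39.0, 41.1, 28.2 and 54.8 CPM (40.8 ± 8.70 CPM, SD, n = 6). Copg2, the maternal gene of a coat protein of Golgi vesicles, had 47.8, 35.2, 49.3, 51.4, 51.9 and 38.9 CPM (45.7 ± 7.01 CPM, SD, n = 6), less than its sister Copg1 with 108 ± 7.39 CPM (SD, n = 6). Mest was higher in 2 of 6 libraries, and the pair was not separated beyond the spread between libraries (log2 difference -0.17 ± 0.45, SD, n = 6; exact permutation p = 0.438, adjusted p = 0.481).

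The 4 members that stand outside these clusters were all present. Plagl1, the zinc finger transcription factor gene known from transient neonatal diabetes, had 35.7, 39.0, 30.2, 42.8, 43.7 and 50.2 CPM (40.3 ± 6.94 CPM, SD, n = 6). Inpp5f, a phosphoinositide phosphatase gene with an imprinted inner start, had 35.4, 32.4, 33.0, 51.9, 45.2 and 47.8 CPM (41.0 ± 8.38 CPM, SD, n = 6). Both were above their plate 1 values in each plate 2 library in CPM, with a log2 fold change after TMM scaling of 0.11 for Plagl1 (adjusted p = 0.769 from edgeR) and 0.25 for Inpp5f (adjusted p = 0.326 from edgeR). Impact, a regulator of translation in amino acid shortage, had 15.5, 11.9, 19.8, 23.7, 12.3 and 28.4 CPM (18.6 ± 6.59 CPM, SD, n = 6). Grb10, the adaptor that dampens insulin receptor signalling, was low with 2.17 to 3.43 CPM.

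The members differed widely in how much they varied among the libraries. The coefficient of variation of the CPM of the 21 members averaging 10 CPM or more ran from 4.18% to 41.9%, with a median of 20.5% against 18% over the 8658 genes at that level. Usp29 was lowest in CPM, where 99.6% of those genes varied more, but with TMM factors it had 13.2%, and 58.4% varied more, so its place depended on the scaling. Blcap (6.32%) and Mcts2 (8.47%) were next in CPM and stayed low with TMM factors (8.92% and 9.39%). Igf2r (41.9%) and Kcnq1ot1 (41.7%) were the most variable, and 2.69% and 2.75% of the genes varied more. With TMM factors they had 35.9% and 40.5%, again the highest of the 21. The middle-total library of plate 2 stood apart in several members. In it, 5 of the 21 (Igf2r, Impact, Sgce, Peg3 and Mest) were more than 1.5-fold lower than the average of its 2 plate mates, at ratios of 0.422, 0.473, 0.544, 0.552 and 0.588. This was 23.8% of the members, and 17.2% of all 8658 genes were lower in the same way, so the members' share was near that of the background. None of the 21 was more than 1.5-fold higher in it, as 3.16% of the 8658 genes were. Among the members below that level with over 3 counts in every library, Rian was 1.59-fold higher, and Mkrn3 and Zim1 were lower, at ratios of 0.464 and 0.632.

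**Figure D3:**
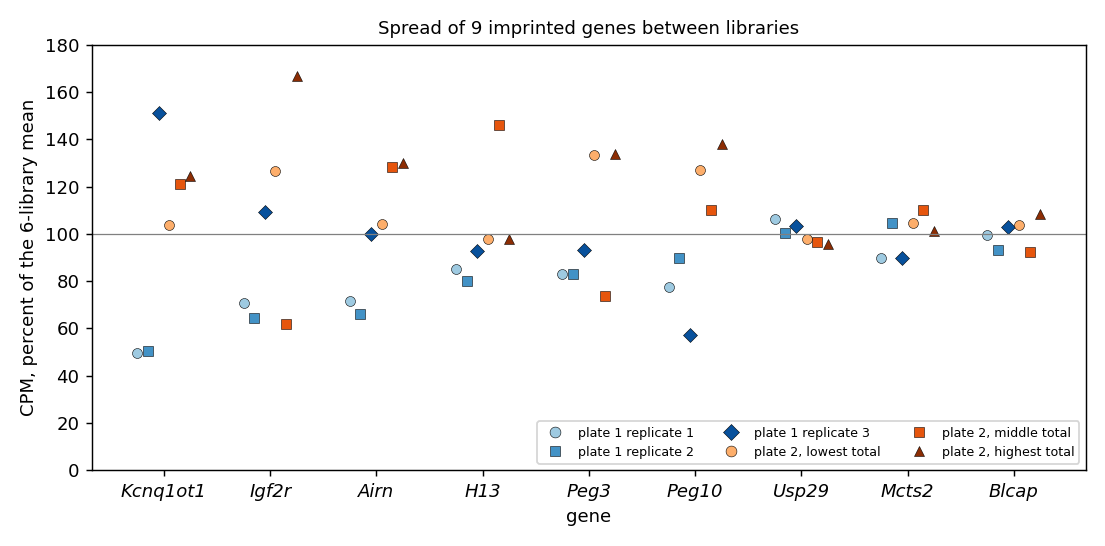
CPM of 9 members in each library as a percent of the mean over the 6 libraries (vertical axis), with 1 point per library and the gene on the horizontal axis. The points of Usp29, Mcts2 and Blcap lie close to the mean (coefficients of variation of 4.18%, 8.47% and 6.32% in CPM, not with TMM factors for Usp29), whereas plate 1 replicate 3 lies far above its plate mates for Kcnq1ot1 and the middle-total library of plate 2 lies lowest for Igf2r and Peg3 and highest for H13.

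Levels on the plates were compared with edgeR's quasi-likelihood test with TMM scaling. It called 29 of 15669 genes (0.185%) at an adjusted p under 0.05, of which 2 were higher on plate 2. Of the members 26 passed the filter on low counts and 0 were called, and 5 of 26 had an unadjusted p under 0.05, against 16.1% of all genes tested. The members' log2 fold changes of plate 2 over plate 1 had a median of 0.036 with 14 of 26 above 0, and those of all genes a median of 0.031. The smallest p was that of Zrsr1, with 25.4 ± 0.780 CPM on plate 1 and 19.4 ± 1.70 CPM on plate 2 (SD, n = 3 each), values that did not overlap. Its log2 fold change was -0.65 (standard error 0.13, adjusted p = 0.0912 from edgeR). Usp29 gave -0.36 (standard error 0.11, adjusted p = 0.167 from edgeR) and Rian -1.10 (standard error 0.37, adjusted p = 0.197 from edgeR). On the other side Peg10 gave 0.47 (standard error 0.18, adjusted p = 0.242 from edgeR), with 132 ± 29.1 CPM on plate 1 and 221 ± 24.8 CPM on plate 2 (SD, n = 3 each). Cd81 gave 0.33 (standard error 0.13, adjusted p = 0.265 from edgeR). The value of Peg10 was 0.29 without plate 1 replicate 3, and that of Cd81 was 0.19 without the middle-total library of plate 2. Values in CPM alone were shifted between the plates, since without TMM the median gene was 0.299 higher on the log2 scale on plate 2. In CPM 6 of the 21 members averaging 10 CPM or more (Airn, Cd81, Peg10, Plagl1, Inpp5f and H13) were higher on plate 2 without overlap, against 42.9% of the 8658 genes, and 2 (Usp29 and Zrsr1) were lower, against 4.1%. With TMM factors 3 (Cd81, Peg10 and Inpp5f) were higher, against 15.1%, and 3 (Usp29, Blcap and Zrsr1) lower, against 13.1%. Without TMM the log2 fold change of Usp29 was -0.10 and that of Zrsr1 -0.38. In that fit 3 members (Cd81, Inpp5f and Peg10) were called higher on plate 2, beside 9.32% of all genes.

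The middle-total library of plate 2 had the most weight in these counts. Without it 1911 of 15894 genes (12.0%) were called, and 5 of 26 members with them. Zrsr1 (-0.66, adjusted p = 0.00385), Usp29 (-0.40, adjusted p = 0.0193), Snrpn (-0.41, adjusted p = 0.0359) and Rian (-1.40, adjusted p = 0.0411) were then lower on plate 2, and Peg3 (0.32, adjusted p = 0.0258) was higher, all as log2 fold changes from edgeR with TMM. Over all 6 libraries the value of Snrpn was -0.26 with TMM and 0.0055 with no scaling, and it was -0.14 without the highest-total library of plate 2. DESeq2 on all 6 libraries called Zrsr1 alone among the members (-0.67, adjusted p = 0.00358), beside 3.73% of all genes, and so did edgeR with no filter on low counts, beside 2.02%. No member was called with the number in the column header as a block (0.0319% of all genes), by limma-voom (0.191%), among genes at 1 CPM or more in every library (0.186%), or without any 1 of the other 5 libraries, where no gene, 0.0122%, 0.0368%, no gene and 0.0566% were called without replicates 1, 2 and 3 of plate 1 and without the lowest- and highest-total libraries of plate 2.

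**Figure D4:**
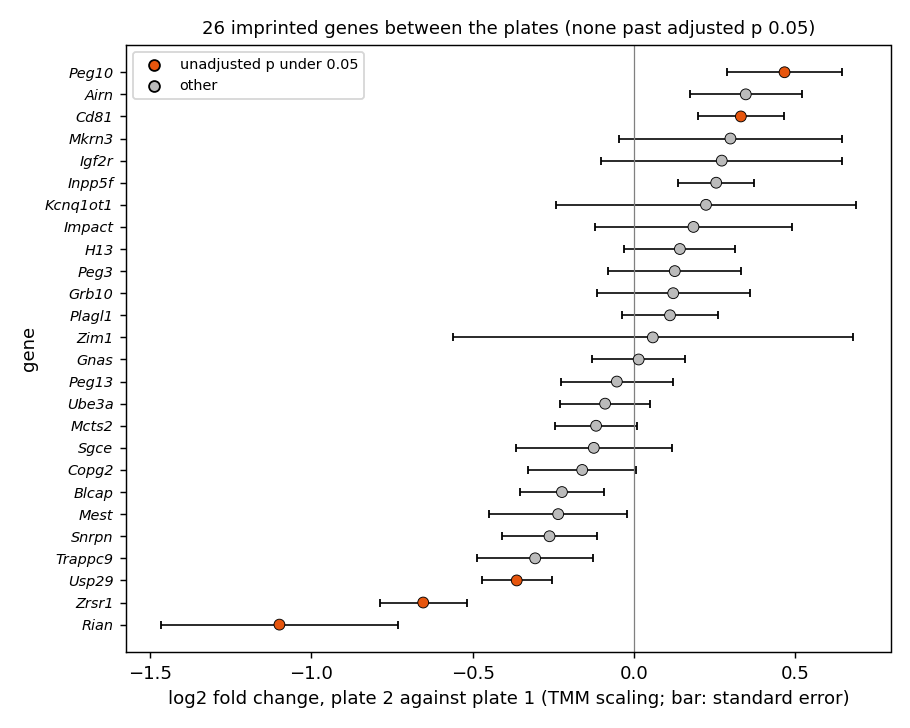
Log2 fold change of plate 2 over plate 1 from edgeR with TMM scaling for the 26 members tested, with bars of 1 standard error and orange points for the 5 with an unadjusted p under 0.05. Zrsr1 (-0.65) and Rian (-1.10) lie lowest and Peg10 (0.47) highest, and 0 of the 26 passed the adjusted threshold.

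Other genes of imprinting were read as well. Of 46 further imprinted genes and host genes found in the table, 16 (34.8%) had at least 1 CPM in every library and 13 had no count in any. The highest were Nap1l4 (150 ± 30.3 CPM), a histone chaperone gene, Ddc (145 ± 27.9 CPM), whose enzyme makes serotonin and dopamine, and Tssc4 (112 ± 24.7 CPM; SD, n = 6 each). Cdkn1c, the growth inhibitor of the Kcnq1ot1 cluster, and Kcnq1 itself had no count. Of 25 genes for regulators of imprints, 21 had at least 1 CPM in every library. These were led by Ezh2 with 183 ± 19.8 CPM and Suz12 with 169 ± 40.0 CPM, subunits of a repressive histone methyltransferase, and by Trim28 with 175 ± 37.0 CPM, the corepressor that ZFP57 recruits (SD, n = 6 each). Dnmt1, which copies methylation after replication, had 89.1 ± 14.3 CPM, and its partner Uhrf1 71.9 ± 10.6 CPM (SD, n = 6 each). Zfp445, the other zinc finger protein known to protect imprints, had 70.4 ± 19.9 CPM (SD, n = 6). Zfp57, Dnmt3l, Dppa3 and Ctcfl, which belong to germ cells and the early embryo, had no count in any library. Between the plates 0 of 21 tested genes of either list were called by edgeR, and 3 and 2 of them had an unadjusted p under 0.05, against 0.185% of all genes called and 16.1% with such a p.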

How the data were processed

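The authors trimmed the reads with Trim Galore (0.6.4) and assigned them with Salmon (1.5.1) to transcripts of GENCODE release M23 on GRCm38, without length correction, and the values deposited per gene are expected counts from Tximeta, not normalized. From these, CPM over the column total were computed. Annotation was GENCODE release M21 on GRCm38 (54107 of 54281 identifiers found), and start-site sequences were from RefSeq. No column was left out.

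Pairs of genes at a locus were compared by exact sign-flip tests on log2(CPM + 1) for pairs in which each gene exceeded 3 counts in some library (11 of 18). For the plates, rounded counts were filtered (filterByExpr), scaled by TMM and fitted in edgeR (4.0.16) with robust quasi-likelihood, with Benjamini-Hochberg adjustment over all genes, and the steps were tested on simulated data. DESeq2 (1.42.0), limma-voom (3.58.1), other scalings, filters and pseudocounts and the omission of each library were the alternatives. R 4.3.3, Python 3.11.15, numpy 2.4.6 and scipy 1.17.1 were used.

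Members and gene lists were chosen with earlier results of these data known. Named with values in each library (counts for Peg13 and Ppp1r9a) are members with a mean of at least 10 CPM and both genes of a pair that holds one, unless near or at 0, with Rian and Herc3 added after their values were seen, and of other lists the highest 3, with genes at 0 counted and some of them named. Dnmt1, Uhrf1, Zfp445, Kcnq1 and Cdkn1c were named after their values were seen.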

Additional observations from a re-analysis of the deposited data

Results flagged for a closer look

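Of the 26 members with enough counts to test, 1 value stood far from the others of its gene. H13 had 177.6 CPM (5491 counts) in the middle-total library of plate 2, and 97.5 to 119 CPM in the other 5. The gap to the nearest value was 0.733 of the whole range, above Dixon's critical value for 6 samples. Chance alone gives such a value in about 1 of 20 genes. Without that library the mean of H13 was 110 ± 9.54 CPM (SD, n = 5).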

How the results depend on the processing

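The number of members with at least 1 CPM in every library was 24 with TMM factors, with DESeq2 size factors and without any 1 library, 25 at 0.5 CPM or with plate 1 alone, and 23 at 2 CPM. The 5 members lower in the middle-total library of plate 2 were the same under both scalings. Other scalings or a total without mitochondrial genes gave 126 recomputed mean levels, of which 1 moved by more than 1 SD. This was Usp29, at 53.9 CPM when the mitochondrial genes were left out of the total. Leaving out 1 library or keeping 1 plate cannot move a mean by 1 SD of the 6 libraries. Such means are therefore no test of the levels, and the 4 members without a count cannot move at all. Of 110 recomputed pair differences, 107 kept their direction, and the others were those of Igf2r and Airn, from -0.0537 to 0.2218 on leaving out 1 library, with -0.0078 without plate 1 replicate 3, -0.038 without the lowest-total library of plate 2 and -0.0537 without the highest. With 5 libraries no pair can pass, since the smallest p is 0.0625. The pairs that passed in the sign-flip test all had the smallest p of 6 libraries, 0.03125, and an adjusted p of 0.0491. That value depends on how many such pairs were tested. They include Peg3 with Zim1 and Sgce with Ppp1r9a, whose levels lie so far apart that the order was hardly in doubt. Had either pair been left out, no pair would have had an adjusted p under 0.05. Between plates, 29 genes and 0 members were called by edgeR, 584 and 1 (Zrsr1) by DESeq2, 30 and 0 by limma-voom, 545 of 27022 and 1 (Zrsr1, -0.64) with no filter, 23 and 0 at 1 CPM or more in every library, and 1461 and 3 with no scaling. Of the calls, 2 of 29 were higher on plate 2 with TMM, 157 of 584 with DESeq2 and 1390 of 1461 with no scaling, which also turned the log2 fold change of Snrpn from -0.2616 to 0.0055. Without 1 library 0 to 1911 genes and 0 to 5 members were called. The counts were 0 without plate 1 replicate 1 (1611 genes at an unadjusted p under 0.05), 2 without replicate 2, 6 without replicate 3, 0 without the lowest plate 2 total (2121 genes at an unadjusted p under 0.05) and 9 without the highest. On leaving out 1 library the log2 fold change of Peg3 ran from -0.0086 (without the highest plate 2 total) to 0.3236 (without the middle), against 0.1264 with all libraries and 0.3972 with no scaling, where that of Usp29 was -0.10 and that of Zrsr1 -0.38. With no scaling Cd81 (0.60), Inpp5f (0.52) and Peg10 (0.74) passed. The cause was not tested. The sample labels number the replicates from 1 to 6 across the plates, and the column headers from 1 to 3 within each plate. With the header number as a replicate block, an alternative chosen after seeing the data, 5 genes and 0 members were called. Libraries with the same header number deviated together with r = 0.082, 0.082 and 0.129 over 15669 genes, each the best match of its library. This is a hint from the data and not the design, and the libraries were not treated as paired. Members under 3 counts are beyond the depth of these libraries.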
